A study of Mus musculus with 6 samples.

Results

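DNA replication and S phase genes were followed here through the comparison of mutant with wild type MLLT3 in cultured mouse bone marrow cells. The members were 53 genes listed by name, and all 53 were found in the deposited table by symbol and passed a filter that keeps genes averaging 3 or more across the 6 libraries. They were 53 of the 18766 genes that passed this filter and were tested, out of 55487 genes in the table. The study sequenced total RNA of Kit-positive cells, Kit being a receptor of haematopoietic stem and progenitor cells, that had received a lentivirus overexpressing MLLT3. The WT group (n = 3) carried wild type MLLT3 and the DM group (n = 3) carried MLLT3 with the substitutions K63E and K67E. In both groups the sorted cells then grew for 8 days in methylcellulose with 200 nM 4-hydroxytamoxifen, which per the labels deletes the endogenous Mllt3, with gentamycin, with mFlt3L at 10 ng/mL and with mIL-3, mIL-6, mIL-11, mSCF, mGMCSF, hTPO and hEPO at 20 ng/mL each. The promoter of the vector, the Cre behind the deletion, the marker of the sort and the animals' age and strain are not given in the sources used here, nor is whether the 3 libraries of a group came from separate animals or cultures, so p-values measure the spread between these libraries only. No group without a vector, and none with a vector but without tamoxifen, was analysed here.

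Before a cell divides it copies its genome once. In G1 the origin recognition complex, Cdc6 and Cdt1 load the ring-shaped MCM helicase onto DNA, a step called licensing. The kinase Cdc7 with its partner Dbf4, and cyclin E with its kinase, then help to convert loaded rings into active helicases with Cdc45 and the GINS complex, and DNA polymerases, a sliding clamp and enzymes that supply nucleotides do the copying. Many of these genes are switched on together near the start of S phase by E2F transcription factors, and their RNA is abundant in cycling progenitors and low in resting or fully mature blood cells.

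Expression is given as rlog values, a regularized log2 transform that normalizes for library size and draws each value toward the mean of its gene, so that the changes of weakly expressed genes are understated. A change is the mean of the DM libraries minus the mean of the WT libraries, and a gene is called when its limma p-value, adjusted by the Benjamini-Hochberg method over all 18766 genes, is under 0.05. Medians over the tested genes lay between 8.03 and 8.11 in the 6 libraries, and the depth of the libraries is unknown. Mllt3, which is both deleted and supplied by the vector, read 12.87, 12.60 and 12.44 in WT and 12.44, 12.03 and 11.99 in the DM libraries, a difference of -0.48 (SE 0.137, limma adjusted p 0.0448). That call was lost without WT replicate 1 (-0.36), WT replicate 2 (-0.50), DM replicate 2 (-0.42) or DM replicate 3 (-0.40), without the filter and without the mean-variance trend, and the values do not separate vector from endogenous transcripts.

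Replication genes were lower in DM than in WT as a group. Of the 53 members, 23 (43.4%) fell and 0 rose, against 4.71% of all tested genes called lower, 9.2% called higher and 13.9% called in either direction. Of all called genes 66.1% were higher in DM, and 51.3% after quantile normalization, where 33 members were called lower and again 0 higher. The median change was -0.25 over the members and 0.01 over all genes tested. With the filter raised to a mean of 5, 26 members and 22.4% of 13448 genes were called, and the median over those genes was 0.06. The mean was lower in DM for 50 members (94.3%), against 48.4% of all tested genes, and for 34 members (64.2%) all 3 DM values lay below all 3 WT values, against 14.3%. An unadjusted limma p under 0.05 was reached by 34 members, 33 lower and 1, Rfc2, higher in DM. Of all 18766 tested genes 5415 reached it, 2034 lower and 3381 higher. The changes were modest: 5 members (9.43%) were lower by at least 0.5, 26 (49.1%) by at least 0.25, and 11 (20.8%) lay within 0.1 of 0. The shares over all tested genes were 1.81%, 5.9% and 49.5%. The largest change, that of Dut, corresponds to a level 38.4% lower on the linear scale. The number of called members came to 8, 11 and 10 when WT replicate 1, DM replicate 2 or DM replicate 3 was left out, where 6.31%, 5.96% and 8.19% of all genes were called. It was 31 without WT replicate 3, where 10.6% of all genes were called. Cdc6, Mcm7, Mcm10, Cdc45, Uhrf1, Rrm2, Dut and Tipin were called in all 12 alternative fits.

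**Figure D1:**
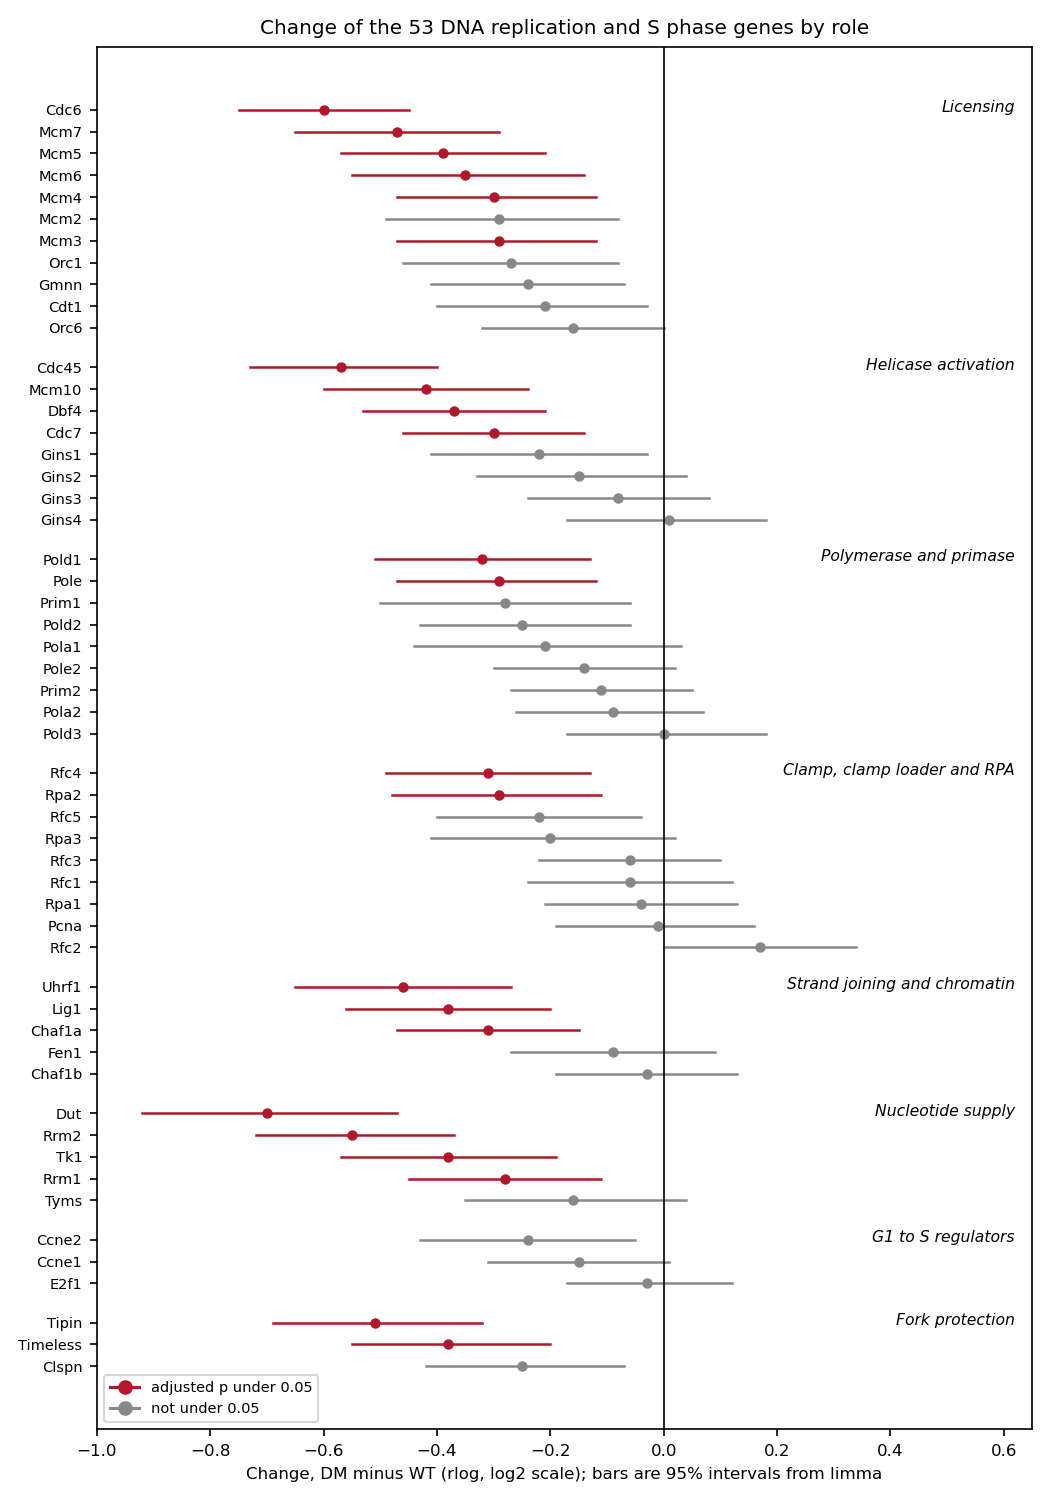
Change of each of the 53 members, DM minus WT, on the rlog (log2) scale, grouped by role and ordered by change within a role; dots are estimates, bars are 95% intervals from limma, and red marks an adjusted p under 0.05. The 23 called members all lie left of 0, from -0.70 for Dut to -0.28 for Rrm1, and the highest value is that of Rfc2 at 0.17.

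The libraries within a group did not lie at one level. Averaged over the 53 members and set against the 6-library mean of each gene, the WT libraries stood at 0.21, 0.15 and 0.02 (replicates 1 to 3) and the DM libraries at -0.06, -0.13 and -0.19. The groups did not overlap, and WT replicate 3 came nearest to DM replicate 1. WT replicate 1 was the highest WT library in 43 of the 53 members and WT replicate 3 the lowest in 50, while DM replicate 1 was the highest DM library in 38 and DM replicate 3 the lowest in 40. Members are therefore not independent of each other within a library. The order was the same in both groups, with replicate 1 highest and replicate 3 lowest on average. A fit that leaves out 1 library thus compares groups that differ in their replicate numbers. The part of this in the calls lost or gained was not tested.

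**Figure D2:**
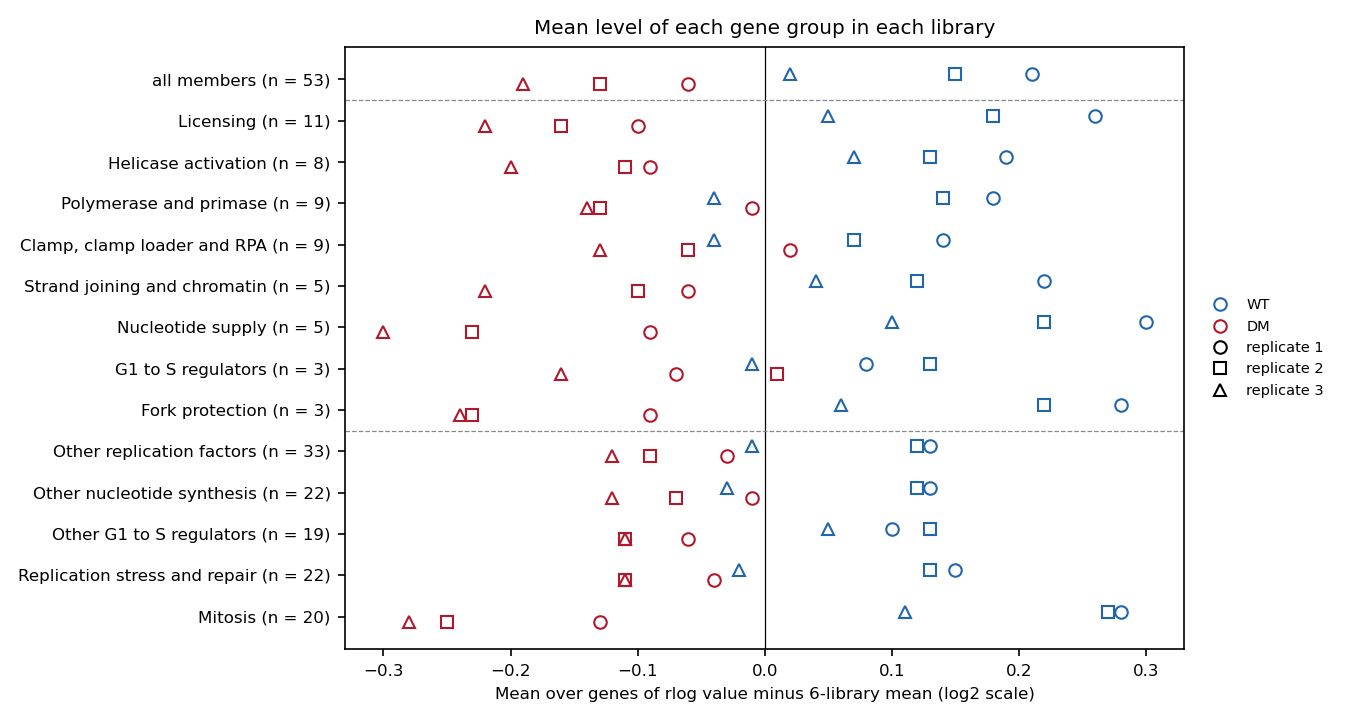
Mean level of each role group of members and of 5 lists of related genes in each library, as the mean over genes of the rlog value minus the 6-library mean (log2 scale); blue is WT, red is DM, and symbols mark replicates. The DM libraries lie below the WT libraries for all members together and for licensing, helicase activation, strand joining, nucleotide supply, fork protection and mitosis, and overlap them for polymerases, for the clamp and its loader, and for the cyclin E and E2f1 group.

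Markers of several blood cell types also differed between the groups. These are RNA levels in bulk, and the shares of cell types were not measured. Over all tested genes 4.71% were called lower and 9.2% higher, and the counts of these short lists stand beside those shares. Of 12 neutrophil markers tested, 10 were called lower and 0 higher. Mmp8 (0.50, limma adjusted p 0.0521) and Mmp9 (-0.21, 0.498) were not called. The largest changes were in Mpo (-4.23, limma adjusted p 0.000444), Elane (-3.96, 0.000118) and Prtn3 (-3.37, 0.000118). The summed level of the neutrophil markers (log2 of the sum of linear values) ran from 18.54 to 18.97 in WT and from 17.16 to 18.01 in DM. S100a9 (mean 16.45) and S100a8 (16.22) had the highest means in this list and weigh most in the sum. Of 11 monocyte and macrophage markers tested, 7 were called higher and 2 lower, with a summed level of 18.28 to 18.97 in WT and 19.26 to 19.63 in DM. The 2 called lower were Ly6c2 (-1.13, limma adjusted p 0.00361) and Ccr2 (-0.78, 0.00975), so this list did not move as one. Lyz2 had the highest values in it, 17.60 to 18.28 in WT and 18.57 to 19.00 in DM, and weighs most in the sum. Eosinophil markers summed to 15.17 to 15.28 in WT and 13.97 to 14.43 in DM (3 of 7 called lower), and megakaryocyte markers to 14.24 to 14.51 and 14.52 to 14.90 (2 of 8 called higher). The summed level of progenitor markers ran from 15.77 to 16.05 in WT and from 15.68 to 16.18 in DM. Of 9 tested, 2 were called lower, Myb (-0.65, limma adjusted p 0.0127) and Flt3 (-0.30, 0.0494), and 0 higher. Kit (mean 14.50) and Gata2 (14.28) had the highest values in this list and weigh most in the sum. Kit, which the cells were selected for, read 14.29 to 14.90 over the libraries and was not called (0.20, limma adjusted p 0.368). Mast cell and basophil markers summed to 18.81 to 19.17 in WT and 18.95 to 19.34 in DM (2 of 11 called higher, 1 lower), erythroid markers to 10.75 to 11.30 and 10.77 to 11.12 (0 of 9 called by limma, 0 with an unadjusted p under 0.05), and stromal markers to 12.61 to 12.76 and 12.56 to 12.81 (2 of 8 called lower). T and NK cell markers summed to low levels, 6.25 to 6.41 in WT and 6.13 to 6.21 in DM (1 of 3 called lower), with Cd3e, Cd3g, Cd8a, Klrb1c and Ncr1 under the filter, along with C1qa, Hba-a1, Hba-a2 and Col3a1 of the other lists. The part of these shifts in the lower replication genes was not tested, and in bulk RNA fewer cycling cells and less RNA per cycling cell cannot be told apart.

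Licensing genes held the most members, and 6 of 11 fell, with a median of -0.29. All 11 had a lower mean in DM, and 10 had all DM values below all WT values. Over all tested genes 4.71% were called lower, 48.4% had a lower mean in DM and 14.3% had all DM values below all WT values. The same shares stand beside the counts of each role that follows, whose members are not independent of each other. Cdc6 (ENSMUSG00000017499.15; chromosome 11, 98907801 to 98923940, plus strand), the ATPase that brings the MCM ring to the origin, read 9.57, 9.59 and 9.46 in WT and 8.99, 8.94 and 8.89 in DM. The libraries fell into separate blocks by group, with a gap several times wider than the spread within either. The mean went from 9.54 ± 0.0664 (SD, n = 3) to 8.94 ± 0.0475, a change of -0.60 (SE 0.0675, limma adjusted p 0.00112), or 33.9% lower on the linear scale. Outside the MCM ring, the other licensing factors did not pass the test. Cdt1, which works with Cdc6, changed by -0.21 (limma adjusted p 0.12), its inhibitor geminin (Gmnn) by -0.24 (0.0694), and the origin recognition subunits Orc1 by -0.27 (0.0626) and Orc6 by -0.16 (0.174). Orc6 had the smallest change of the group, with 9.33, 9.24 and 9.18 in WT and 9.14, 9.02 and 9.11 in DM, which do not overlap. Orc1, Cdt1, Gmnn and Orc6 passed the threshold after quantile normalization, with adjusted p values of 0.0445, 0.0148, 0.0163 and 0.0488, and the first 3 of them also after centring each library on its median and without WT replicate 3.

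The ring of the replicative helicase is built from Mcm2 to Mcm7, and 5 of its 6 subunits fell. Their changes lay close together, from -0.29 to -0.47. Mcm7 (ENSMUSG00000029730.16; chromosome 5, 138164583 to 138172422, minus strand) read 11.82, 11.73 and 11.58 in WT and 11.30, 11.27 and 11.16 in DM. Every DM library was below every WT library. Its mean went from 11.71 ± 0.122 (SD, n = 3) to 11.24 ± 0.0778, a change of -0.47 (SE 0.0807, limma adjusted p 0.00698). Mcm5 changed by -0.39 (limma adjusted p 0.0131), Mcm6 by -0.35 (0.0318), Mcm4 by -0.30 (0.0313) and Mcm3 by -0.29 (0.0343). Mcm2 changed by -0.29 with an adjusted p of 0.0652, and its lowest WT value (11.67) met its highest DM value (11.67). Without WT replicate 1 the calls of Mcm3 (-0.24, adjusted p 0.149), Mcm4 (-0.27, 0.129), Mcm5 (-0.36, 0.0615) and Mcm6 (-0.29, 0.129) were lost, and without DM replicate 3 those of Mcm3 (-0.26, 0.133), Mcm4 (-0.26, 0.124), Mcm5 (-0.32, 0.0548) and Mcm6 (-0.29, 0.127). Without DM replicate 2 Mcm3 (-0.28, 0.126), Mcm4 (-0.28, 0.118) and Mcm6 (-0.34, 0.104) lost theirs, as did Mcm4 (-0.27, 0.0521) and Mcm6 (-0.32, 0.0552) without WT replicate 2, while Mcm2 was called without WT replicate 3 (-0.36, 0.0303) and without DM replicate 1 (-0.36, 0.0383). Dropping the filter on the mean also lost the calls of Mcm3 (limma adjusted p 0.0756), Mcm4 (0.0733) and Mcm6 (0.058).

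Because the MCM genes and their neighbours in the pathway are classic E2F targets, the promoters of the members were read for E2F motifs. RefSeq promoter windows on GRCm38.p6, from 250 bases before to 50 bases after the annotated start, were matched by symbol for 43 of the 53 members. An E2F motif, taken as TTTCGCGC, TTTGGCGC, TTTCCCGC or TTTGCCGC on either strand, was present for 16 of the 43 (37.2%), against 2.6% of 27025 genes with such windows. It was present for 8 of 20 matched members that were called and for 8 of 23 that were not. The CCAAT box (CCAAT, either strand) was present for 55.8% of members and 41.1% of all genes, and the CHR element (TTTGAA or TTCGAA, either strand), known from mitotic promoters, for 20.9% and 21.7%. A match is a run of letters and not a bound site. The 27025 genes were not limited to the tested genes or matched for base content. Many members are known E2F targets, so the contrast describes the list and was not tested. The 250 bases before the start are shown for 2 called helicase genes with the E2F motif, for Pola1, which has it and was not called, and for Mcm10, which fell and has none in this window. All are printed 5′ to 3′ on the strand of the gene, with E2F motifs and CCAAT boxes in capitals (a box on the other strand reads ATTGG), and none of the 4 stretches overlaps an exon in GENCODE M21.
Mcm5, chr8:75109259-75109508, plus strand: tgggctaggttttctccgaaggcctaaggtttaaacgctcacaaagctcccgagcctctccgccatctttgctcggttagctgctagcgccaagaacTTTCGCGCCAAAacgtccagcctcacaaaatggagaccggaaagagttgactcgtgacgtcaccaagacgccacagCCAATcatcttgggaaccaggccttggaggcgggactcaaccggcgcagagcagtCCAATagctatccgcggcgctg
Mcm6, chr1:128359706-128359955, minus strand: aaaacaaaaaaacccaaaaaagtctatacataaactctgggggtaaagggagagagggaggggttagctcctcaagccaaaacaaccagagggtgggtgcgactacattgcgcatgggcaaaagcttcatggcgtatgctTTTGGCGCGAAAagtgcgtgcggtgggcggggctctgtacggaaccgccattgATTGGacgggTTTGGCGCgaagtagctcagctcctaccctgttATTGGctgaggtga
Pola1, chrX:93632156-93632405, minus strand: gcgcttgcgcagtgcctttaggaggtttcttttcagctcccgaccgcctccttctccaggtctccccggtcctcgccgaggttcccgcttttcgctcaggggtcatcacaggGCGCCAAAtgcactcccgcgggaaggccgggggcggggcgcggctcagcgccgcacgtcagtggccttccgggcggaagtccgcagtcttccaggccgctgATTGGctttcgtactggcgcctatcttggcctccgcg
Mcm10, chr2:5012792-5013041, minus strand: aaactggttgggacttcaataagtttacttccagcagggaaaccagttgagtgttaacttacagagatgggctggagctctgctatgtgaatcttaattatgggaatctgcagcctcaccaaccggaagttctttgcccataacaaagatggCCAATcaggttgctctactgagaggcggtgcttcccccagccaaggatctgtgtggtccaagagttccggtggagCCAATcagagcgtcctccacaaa
In Mcm5 the motifs TTTCGCGC and GCGCCAAA begin 153 and 149 bases before the start and share their middle letters. In Mcm6 the motifs TTTGGCGC and GCGCGAAA overlap in the same way, 110 and 106 bases before the start, and TTTGGCGC recurs at 47. Pola1 has GCGCCAAA at 138. CCAAT boxes stand at 77 and 22 in Mcm5, 57 and 14 in Mcm6, 37 in Pola1, and 98 and 23 in Mcm10.

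Among the 8 genes that turn a loaded ring into a working helicase, 4 fell and 4 did not pass the test. Cdc45 (ENSMUSG00000000028.15; chromosome 16, 18780447 to 18811987, minus strand), a core part of the active helicase, read 9.85, 9.84 and 9.73 in WT and 9.26, 9.32 and 9.14 in DM. The gap between the groups was wider than the range within either. The mean went from 9.81 ± 0.0685 (SD, n = 3) to 9.24 ± 0.0915, a change of -0.57 (SE 0.0733, limma adjusted p 0.00228), 32.4% lower on the linear scale. Mcm10 (ENSMUSG00000026669.14; chromosome 2, 4989714 to 5012791, minus strand), needed for the ring to start unwinding, read 10.02, 9.95 and 9.75 in WT and 9.50, 9.47 and 9.48 in the DM libraries. Its DM libraries were nearly equal, and its change was -0.42 (SE 0.0799, limma adjusted p 0.0094). The kinase Cdc7 changed by -0.30 (limma adjusted p 0.0232) and its activating partner Dbf4 by -0.37 (0.0107). Without WT replicate 1 both lost their calls (Cdc7 -0.31, adjusted p 0.0728, and Dbf4 -0.34, 0.0521), and Cdc7 did so without DM replicate 2 (-0.24, 0.0971). Cdc7 also lost its call without the filter on the mean (limma adjusted p 0.0534).

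The GINS complex joins Cdc45 on the ring. None of its 4 subunits was called, by limma in the reported fit or in any of the 12 alternatives, and 1 of them, Gins1, had an unadjusted p under 0.05. The changes were -0.22 for Gins1 (limma adjusted p 0.124, 95% interval -0.41 to -0.03), -0.15 for Gins2 (0.264, interval -0.33 to 0.04), -0.08 for Gins3 (0.494, interval -0.24 to 0.08) and 0.01 for Gins4 (0.97, interval -0.17 to 0.18). Gins4 read 9.88, 9.82 and 9.67 in WT and 9.84, 9.85 and 9.70 in DM, with the groups interleaved. These intervals leave room for a fall of the size seen in Mcm3 only for Gins1 and Gins2. Whether the GINS genes differ from the MCM genes in their change was not tested.

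**Figure D3:**
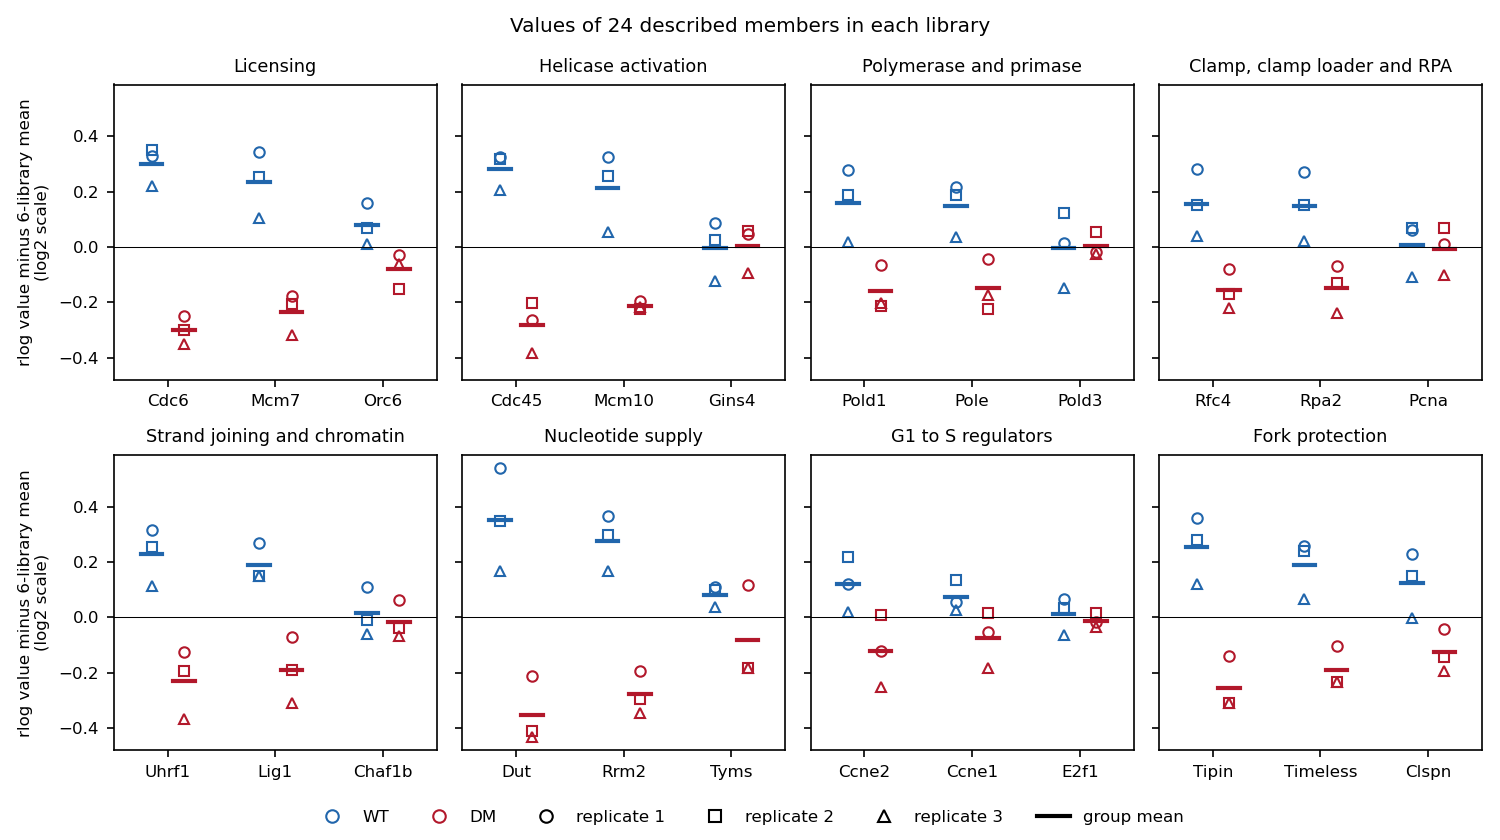
Values of 24 members, the 2 with the largest and the 1 with the smallest change in each role by the stated rule, in each library, as the rlog value minus the 6-library mean (log2 scale); blue is WT, red is DM, symbols mark replicates and bars mark group means. In Cdc6, Cdc45, Rrm2, Uhrf1 and Tipin the groups stand apart, while in Gins4, Pold3, Pcna, Chaf1b and E2f1 they are interleaved.

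Of 9 polymerase and primase genes, 2 fell, Pold1 and Pole. Pold1 (ENSMUSG00000038644.14; chromosome 7, 44532746 to 44548849, minus strand), the catalytic subunit of polymerase delta, which copies the lagging strand, read 10.86, 10.77 and 10.60 in WT and 10.52, 10.37 and 10.38 in DM. The change was -0.32 (SE 0.0843, limma adjusted p 0.0323). Pole (ENSMUSG00000007080.14; chromosome 5, 110286306 to 110337474, plus strand), the catalytic subunit of polymerase epsilon on the leading strand, read 10.55, 10.52 and 10.37 in WT and 10.29, 10.11 and 10.16 in the DM libraries, a difference of -0.29 (SE 0.078, limma adjusted p 0.0345). The groups did not overlap for either gene, but WT replicate 3 lay close to DM replicate 1 in both. Their calls were lost without WT replicate 1 (Pold1 -0.26, adjusted p 0.133; Pole -0.26, 0.136), without WT replicate 2 (-0.31, 0.0543; -0.27, 0.0606), DM replicate 2 (-0.29, 0.122; -0.25, 0.139) or DM replicate 3 (-0.30, 0.115; -0.28, 0.117), and without the filter on the mean.

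The other 7 polymerase and primase genes did not pass the test, and whether their changes differ from those of Pold1 and Pole was not tested. Pold3, an accessory subunit of polymerase delta, read 10.67, 10.78 and 10.51 in WT and 10.64, 10.71 and 10.63 in the DM libraries, a difference of 0.00 (SE 0.0796, 95% interval -0.17 to 0.18). The other accessory subunits changed by -0.25 (Pold2, limma adjusted p 0.0787) and -0.14 (Pole2, 0.231). Polymerase alpha and primase, which lay down the first primers, changed by -0.21 (Pola1, 0.226), -0.09 (Pola2, 0.423), -0.28 (Prim1, 0.0915) and -0.11 (Prim2, 0.328). Prim1, Pold2 and Pola1 were called without WT replicate 3 (-0.36, adjusted p 0.0362; -0.31, 0.0426; -0.31, 0.0467), and Prim1 without DM replicate 1 as well (-0.36, 0.0467).

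The sliding clamp, its loader and the single-strand binding protein RPA were the group with the smallest median change, -0.06, and 2 of 9 members fell. Pcna (ENSMUSG00000027342.14; chromosome 2, 132249162 to 132253314, minus strand), the clamp that tethers polymerases to DNA and a common label of S phase cells, read 12.10, 12.11 and 11.93 in WT and 12.05, 12.11 and 11.94 in DM. The libraries were interleaved, with replicate 3 the lowest in both groups. WT averaged 12.05 ± 0.0983 (SD, n = 3) and DM 12.03 ± 0.0855, a change of -0.01 with a 95% interval from -0.19 to 0.16 (limma adjusted p 0.923). Over the alternatives the change of Pcna ran from -0.12 to 0.03 and was called in none. Pcna-ps1 and Pcna-ps2, pseudogene copies of the gene, make its value uncertain.

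The clamp loader has one large subunit, Rfc1, and a set of small ones. Rfc4 was its 1 subunit of 5 that fell: it read 8.77, 8.64 and 8.53 in WT and 8.41, 8.32 and 8.27 in the DM libraries, a difference of -0.31 (SE 0.0802, limma adjusted p 0.0298). Rfc2 was the member with the highest change, 0.17 (adjusted p 0.171), at 11.36, 11.24 and 11.19 in WT and 11.52, 11.43 and 11.34 in DM, where WT replicate 1 lay above DM replicate 3. Rfc1 changed by -0.06 (adjusted p 0.657), Rfc3 by -0.06 (0.622) and Rfc5 by -0.22 (0.1). Of the RPA subunits, Rpa2 read 9.90, 9.78 and 9.65 in WT and 9.56, 9.50 and 9.39 in the DM libraries, a difference of -0.29 (SE 0.0827, limma adjusted p 0.0437), while Rpa1 changed by -0.04 (0.785) and Rpa3 by -0.20 (0.204). The call of Rpa2 was lost when any library except WT replicate 3 was left out, with changes from -0.33 to -0.23 and adjusted p values from 0.056 to 0.166. Rfc4 lost its call without WT replicate 1 (-0.25, 0.124), DM replicate 2 (-0.30, 0.0953) or DM replicate 3 (-0.28, 0.106). Both Rfc4 (limma adjusted p 0.0617) and Rpa2 (0.106) also lost theirs without the filter on the mean.

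Of 5 genes that finish new strands or restore chromatin on them, 3 fell. Uhrf1 (ENSMUSG00000001228.14; chromosome 17, 56303321 to 56323486, plus strand), which brings the maintenance DNA methyltransferase to newly copied DNA, read 12.08, 12.02 and 11.88 in WT and 11.64, 11.57 and 11.40 in DM. Every DM library was lower than every WT library. The change was -0.46 (SE 0.0855, limma adjusted p 0.00915), 27.2% lower on the linear scale. Lig1, the ligase that joins Okazaki fragments, read 11.31, 11.19 and 11.19 in WT and 10.97, 10.85 and 10.73 in the DM libraries, a difference of -0.38 (SE 0.0793, limma adjusted p 0.0132). Fen1, the nuclease that trims those fragments before ligation, changed by -0.09 (adjusted p 0.472, 95% interval -0.27 to 0.09). The large subunits of the chromatin assembly factor differed in call: Chaf1a changed by -0.31 (limma adjusted p 0.0191) and Chaf1b by -0.03 (0.805), at 10.70, 10.58 and 10.53 in WT and 10.65, 10.55 and 10.52 in DM for Chaf1b, and the difference between them was not tested. Chaf1a was not called without the filter on the mean (limma adjusted p 0.0515). Lig1 (-0.34, adjusted p 0.0634) and Chaf1a (-0.29, 0.0878) lost their calls without WT replicate 1. The same happened when DM replicate 2 (-0.38, 0.0521; -0.33, 0.056) or DM replicate 3 was left out (-0.32, 0.0568; -0.27, 0.0845).

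Nucleotide supply had the lowest median of the larger role groups, -0.38, equal to that of fork protection, and 4 of its 5 members fell. Dut (ENSMUSG00000027203.15; chromosome 2, 125247190 to 125258608, plus strand), the dUTPase that keeps uracil out of DNA, read 10.82, 10.63 and 10.45 in WT and 10.07, 9.87 and 9.85 in the DM libraries. Its WT libraries were the most spread of the called members, yet the lowest of them stood well above the highest DM library. The mean went from 10.63 ± 0.187 (SD, n = 3) to 9.93 ± 0.118, a change of -0.70 (SE 0.101, limma adjusted p 0.00376). Rrm2 (ENSMUSG00000020649.11; chromosome 12, 24708241 to 24714146, plus strand), the S phase subunit of ribonucleotide reductase, read 12.50, 12.43 and 12.30 in WT and 11.94, 11.84 and 11.79 in the DM libraries. This amounts to -0.55 (SE 0.0785, limma adjusted p 0.00364), 31.6% lower on the linear scale. The partner subunit Rrm1 changed by -0.28 (limma adjusted p 0.0338) and thymidine kinase Tk1 by -0.38 (0.0168). Rrm1 was not called without the filter on the mean (limma adjusted p 0.0735). Thymidylate synthase (Tyms), which has the pseudogene Tyms-ps, changed by -0.16 (adjusted p 0.258), at 10.39, 10.38 and 10.32 in WT and 10.40, 10.10 and 10.10 in DM, with DM replicate 1 above all WT libraries. Without WT replicate 1 Rrm1 (-0.25, adjusted p 0.14) and Tk1 (-0.33, 0.0754) lost their calls, as they did without DM replicate 3 (-0.24, 0.14; -0.31, 0.0669), and Rrm1 did so without DM replicate 2 (-0.28, 0.112).

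Of the 3 regulators at the entry to S phase, 0 passed the limma test, and 1, Ccne2, had an unadjusted p under 0.05. E2f1, the activator of many genes in this list, read 10.37, 10.34 and 10.24 in WT and 10.29, 10.32 and 10.27 in the DM libraries, a difference of -0.03 (SE 0.0657, limma adjusted p 0.824, 95% interval -0.17 to 0.12). The groups overlapped. The cyclin E genes, whose products drive entry into S phase, changed by -0.15 (Ccne1, adjusted p 0.208) and -0.24 (Ccne2, 0.0882). Ccne1 read 9.16, 9.24 and 9.13 in WT and 9.05, 9.12 and 8.92 in DM, and Ccne2 9.93, 10.03 and 9.83 in WT and 9.69, 9.82 and 9.56 in DM. Neither pair of groups overlapped, by a narrow gap in each case. Ccne2 was called after quantile normalization (-0.32, adjusted p 0.0134), after centring on the median (-0.28, 0.0422) and with the replicate number as a block, and E2f1 and Ccne1 in no alternative.

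The genes that steady the replication fork and signal its stalling were lower in every comparison of libraries between the groups, and 2 of 3 fell. Tipin (ENSMUSG00000032397.7; chromosome 9, 64281581 to 64305424, plus strand) read 10.36, 10.28 and 10.12 in WT and 9.86, 9.69 and 9.69 in the DM libraries, a difference of -0.51 (SE 0.0827, limma adjusted p 0.00612). Timeless, its binding partner, read 10.06, 10.04 and 9.87 in WT and 9.70, 9.57 and 9.57 in the DM libraries, a difference of -0.38 (SE 0.0769, limma adjusted p 0.0123). Claspin (Clspn), which passes the stall signal to the kinase Chek1, read 10.93, 10.85 and 10.70 in WT and 10.66, 10.56 and 10.51 in the DM libraries, a difference of -0.25 that missed the threshold (limma adjusted p 0.0651). Timeless lost its call without WT replicate 1 (-0.34, adjusted p 0.058), DM replicate 2 (-0.35, 0.0549) or DM replicate 3 (-0.36, 0.051), and Clspn gained one without WT replicate 3 (-0.31, 0.026).

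Related genes outside the members were read from 4 further lists, for which the share of all genes called lower was again 4.71%. Of 33 other replication factors tested, 8 fell and 0 rose (median -0.14). The largest changes were in Cdca7 (-0.68, limma adjusted p 0.000648) and Hells (-0.45, 0.0155), which act together in chromatin remodelling, and in Top2a (-0.48, 0.00626), the topoisomerase that untangles finished chromosomes. Of 22 other genes of nucleotide synthesis, 4 fell and 0 rose (median -0.17), led by the folate pathway enzymes Shmt2 (-0.53, 0.0108), Shmt1 (-0.39, 0.0163) and Mthfd2 (-0.32, 0.0265). Of 19 other regulators of the G1 to S step, 8 fell and 0 rose (median -0.21). At an unadjusted limma p under 0.05 these 3 lists had 2, 0 and 2 genes higher in DM, in the order given. Cdc25a, the phosphatase that activates cyclin-dependent kinases, changed by -0.65 (limma adjusted p 0.00128). Tfdp1, a partner with which many E2F proteins bind DNA, changed by -0.53 (limma adjusted p 0.00248) and E2f2 by -0.46 (0.0225). Of 22 genes of replication stress and repair, 7 fell and 0 rose (median -0.22), with Fancd2 at -0.53 (0.00275), Exo1 at -0.39 (0.00973) and Msh6 at -0.30 (0.0275).

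Those counts moved with single libraries. Without WT replicate 1 the called genes numbered 3, 1, 6 and 2 in these lists in the order given, where 6.31% of all genes were called in either direction. Without WT replicate 2 they were 5, 2, 8 and 4 (18.5% of all genes), and without WT replicate 3 they were 12, 8, 9 and 11 (10.6%). Leaving out DM replicate 1 gave 8, 3, 6 and 4 (9.91%). Leaving out DM replicate 2 gave 4, 2, 6 and 2 (5.96%), and leaving out DM replicate 3 gave 4, 1, 6 and 3 (8.19%). Hells lost its call without WT replicate 1 (-0.38), DM replicate 2 (-0.43) or DM replicate 3 (-0.45), Shmt1 without WT replicate 1 (-0.34), DM replicate 1 (-0.35) or DM replicate 3 (-0.37), and E2f2 without DM replicate 1 (-0.37) or DM replicate 3 (-0.49). Mthfd2 lost it in all leave-one-out fits except those without WT replicate 3 or DM replicate 1, and Msh6 without WT replicate 1 (-0.25), DM replicate 2 (-0.31) or DM replicate 3 (-0.27). Mthfd2 (limma adjusted p 0.0647) and Msh6 (0.0706) also lost theirs without the filter on the mean. Cdca7, Top2a, Shmt2, Cdc25a, Tfdp1, Fancd2 and Exo1 kept theirs in all 12 alternatives.

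Genes of mitosis were the nearest comparison. In a list of 20 such genes all 20 fell, with changes from -0.66 to -0.30 and a median of -0.41. For the replication members it was 23 of 53 with a median of -0.25, and 4.71% of all tested genes were called lower. This list too was chosen with earlier results of these data known. Leaving out one library brought the mitosis count to 14 for WT replicate 1, 13 for DM replicate 2 and 14 for DM replicate 3, and left it at 20 for the others. In the first 3 of these fits 6.31%, 5.96% and 8.19% of all genes were called. That mitotic genes changed more than replication genes is a description of these lists and was not tested.

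**Figure D4:**
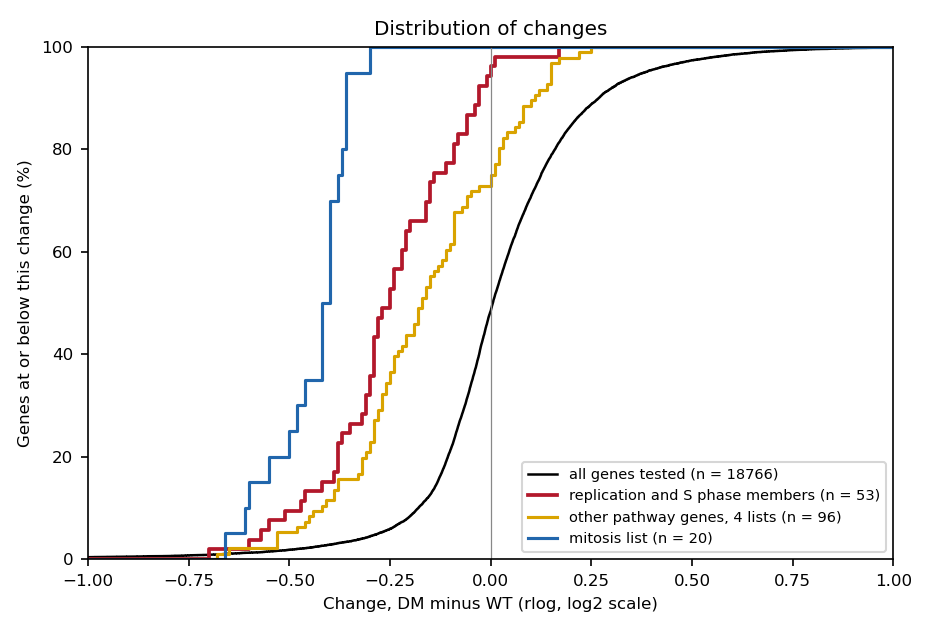
Cumulative share of genes (%) at or below each change, DM minus WT (rlog, log2 scale), for all 18766 tested genes, the 53 members, 96 other pathway genes in 4 lists, and 20 mitosis genes; 81 of all tested genes lie outside the range from -1 to 1. The medians are 0.01 for all genes, -0.25 for the members and -0.41 for the mitosis genes.

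Levels per length were set side by side by subtracting the log2 of the exon length in kb (GENCODE M21, all exons of a gene merged) from the mean rlog value. On this scale Pcna (10.78), Rrm2 (10.66) and Mcm3 (10.08) were the highest of the 53 members and Orc1 (5.95), Pole2 (6.01) and Gins3 (6.38) the lowest. Among the highest, Rrm2 and Mcm3 fell and Pcna was not called, and none of the 3 lowest was called. For 15 members, 8 of them called, an exon overlaps an exon of another gene on the opposite strand in that annotation, the called ones being Cdc45 (Ufd1), Mcm7 (Ap4m1 and Cops6), Pole (Gm15792), Rfc4 (Eif4a2), Lig1 (Zswim9), Chaf1a (Ubxn6), Tk1 (Afmid) and Timeless (Gm26847). Whether the counting used strand is not given in the sources used here, so reads of such partners may be mixed into these values.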

How the data were processed

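Total RNA of 6 libraries was compared, 3 WT and 3 DM, grouped by their labels, which put all of them in batch 1. The authors deposited 1 table of log2 values; that these are rlog values was read from the table's name and its contents (range -1.97 to 21.88, with decimals). The submitters' processing notes name cutadapt 2.6, STAR 2.7.3, DESeq2 1.30.0 and the build mm10; the counting tool, use of strand and annotation are not given in the sources used here. The 142699 lines were merged to 55487 genes, since identical lines repeat a gene. No counts are held, so depth is unknown and no counting interval was computed; 3 libraries a group limit the precision. Coordinates are from GENCODE M21 (GRCm38), whose versioned identifiers matched all 53 members; promoters are from RefSeq, GRCm38.p6.

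Genes with a mean of at least 3 were fitted with limma 3.58.1 (lmFit, eBayes with a mean-variance trend, R 4.3.3, prior degrees of freedom 5.82), two-sided, Benjamini-Hochberg over 18766 genes. On simulated data with independent noise for each gene, the fit called 73.9% of changes of 0.5 and 95.4% of changes of 1. Smaller changes, which most members had, and shifts shared by the genes of a library were not simulated. The members and the lists were chosen with earlier results of these data known. Described in full in each of 8 roles were the 2 called members with the largest change (largest of any where fewer were called) and the 1 with the smallest; from each further list up to 3 called genes a direction. The alternatives tried were fits with the filter dropped or raised to 5, no trend, quantile normalization, centring on the library median, a replicate block and each library left out. The study's same-numbered libraries had deviations from group means that correlated at 0.491, 0.116 and 0.041. Those of WT and DM libraries with different numbers correlated at -0.336 to 0.124. Whether the numbers mark pairs is not given in the sources used here, so the reported fit did not use them and the replicate block did. Figures were drawn with matplotlib 3.10.9. One further list of cell type markers is not reported here.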

Additional observations from a re-analysis of the deposited data

How the results depend on the processing

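In all 12 alternatives 0 members were called higher, the median change of the members stayed between -0.32 and -0.21, and from 46 to 52 members had a lower mean in DM. Of the 23 called members, 8 were called in every alternative; of the 30 others, 11 were called in at least 1. Without the filter on the mean, which tests 47934 genes, the called members numbered 13 (3.75% of all genes were called), with 5 other replication factors, 2 genes of nucleotide synthesis and 2 of replication stress and repair. After quantile normalization 33 members and 14.1% of all genes were called, with 16 other replication factors, 10 of nucleotide synthesis, 14 regulators of the G1 to S step and 13 of replication stress and repair; this scaling took the share of higher genes among all calls from 66.1% to 51.3%, while the median of all genes stayed at 0.01. After centring on the library median 31 members, 11 genes of replication stress and repair and 14.7% of all genes were called. With the replicate number as a block 30 members were called, all 23 of the reported ones among them. So were 9 genes of nucleotide synthesis, 11 of replication stress and repair, and 3742 of all genes against 2611. Deviations of same-numbered libraries correlated at 0.491, 0.116 and 0.041. Those with different numbers correlated at -0.336 to 0.124, highest for WT replicate 3 with DM replicate 2. Whether the numbers pair the libraries is not given in the sources used here.

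With one library left out, called members numbered from 8 (without WT replicate 1) to 31 (without WT replicate 3), and all called genes from 1119 (without DM replicate 2) to 3475 (without WT replicate 2). Other replication factors ranged from 3 to 12, nucleotide synthesis from 1 to 8, regulators of the G1 to S step from 6 to 9, replication stress and repair from 2 to 11, and mitosis from 13 to 20. Read counts were not analysed here, so how far depth limits the weakly expressed members, such as Orc1 and Pole2, was not measured.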
